A study of Mus musculus with 10 samples.

Results

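The genes described here handle vitamin A: the retinol dehydrogenase genes Rdh12, Rdh10 and Rdh11, the retinal dehydrogenase genes Aldh1a1 and Aldh1a3, the retinol carrier gene Rbp4 and its receptor gene Stra6, and the retinoic acid-binding protein genes Crabp1 and Crabp2. These 9 genes, of 18193 measured, were read by 14 probe sets annotated to 1 of them alone, and the probe set of highest mean over the arrays stood for each gene. Rdh12 was chosen by its own difference between the treatments in these tumors, so its values are given as a description with no test. The other 8 genes were selected because they share its pathway.

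Dietary retinol circulates bound to RBP4 and enters some cells through STRA6. Retinol dehydrogenases interconvert retinol and retinal, retinal dehydrogenases oxidize retinal irreversibly to retinoic acid, and CRABP2 carries retinoic acid to its nuclear receptors. Retinoic acid controls growth and differentiation of many epithelia, among them that of the mammary gland.

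RNA had been taken from 10 mammary tumors of female FVB/N-Tg(MMTVneu) mice (Tg-neu), in which the mouse mammary tumor virus promoter drives the neu proto-oncogene in the mammary gland, and each was read on 1 Affymetrix mouse array. From detection of the first tumor, mice received lovastatin (Lov), an inhibitor of HMG-CoA reductase, at 10 mg/kg intraperitoneally, or its vehicle ethanol (Vhcl), 3 times per week for 6 weeks. All mice of both groups carried the transgene, and the ages of the animals were not given in the sources used here. The Vhcl tumors were A45, A49, A54, A59 and AB11 and the Lov tumors A19, A48, A50, A55 and AB10. The labels assign the first 5 to vehicle control, and their descriptions call the same tumors not treated. Whether every tumor came from a different mouse is not stated. The p-values set group differences against the spread between these tumors and treat the tumors as independent.

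The values are log2 signals normalized by the authors, with array medians of 4.97 to 5.05. Krt8 and Epcam, markers of luminal epithelium, were high in all tumors (log2 signals of at least 11.6 and 12.11). Correlations between arrays were 0.972 to 0.980 within Vhcl and 0.981 to 0.990 within Lov. Some tumors stood apart in the transcripts of neighboring tissues. The mean log2 signal of 4 salivary gland genes was 11.92 in Vhcl AB11, against 3.29 to 6.91 in the other tumors, and that of 6 skeletal muscle genes was above 8 in Vhcl A54, Vhcl A59 and Lov A55. Whole tumors were profiled, and fewer cells of a type and less RNA per cell cannot be told apart.

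Rdh12 lies on chromosome 12 beside Rdh11, which encodes a related enzyme of the same short-chain dehydrogenase family. The 250 bases before the start of each gene are shown because the neighbors differed in these tumors as described next. The windows are RefSeq annotation of build GRCm38.p6, at chr12:79208663-79208912 on the plus strand for Rdh12 and at chr12:79191856-79192105 on the minus strand for the first of the Rdh11 starts, each written 5′ to 3′. Capitals mark the longest stretch that the windows share with at most 2 mismatches.
Rdh12: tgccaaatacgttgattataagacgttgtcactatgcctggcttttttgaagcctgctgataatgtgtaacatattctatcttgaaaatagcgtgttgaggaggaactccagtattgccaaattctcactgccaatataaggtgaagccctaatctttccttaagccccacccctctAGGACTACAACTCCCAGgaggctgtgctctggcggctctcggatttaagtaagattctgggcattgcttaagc
Rdh11: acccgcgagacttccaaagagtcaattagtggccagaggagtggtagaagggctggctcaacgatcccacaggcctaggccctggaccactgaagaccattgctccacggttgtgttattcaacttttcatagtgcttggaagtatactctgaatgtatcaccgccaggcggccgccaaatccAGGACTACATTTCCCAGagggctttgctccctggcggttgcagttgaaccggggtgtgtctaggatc
The shared stretch is 17 bases long with 15 identical positions, and ends 57 bases before the start of Rdh12 and 51 bases before that of Rdh11. Its letters, AGGACTACANNTCCCAG on either strand, were found in 21 of 32851 RefSeq windows of this length (0.0639%). The 21 include both windows shown here, since the letters were taken from them. The stretch was picked as their best match, so the share does not measure how unusual it is. Of the 9 genes, 6 had windows, 12 in all. The nuclear receptor half-site AGGTCA, searched on both strands, was in 1 of these 12, at the other Rdh11 start, and in 14.0% of all windows. The half-site AGTTCA was in 0 of the 12 and in 11.8% of all. These matches are descriptions of sequence, and no binding was measured.

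Rdh12 encodes a dehydrogenase best known for reducing retinal in photoreceptors. Its log2 signal was 4.42, 7.28, 7.64, 4.68 and 9.17 in Vhcl A45, A49, A54, A59 and AB11. In Lov A19, A48, A50, A55 and AB10 it was 9.22, 8.94, 8.78, 9.55 and 9.35. All Lov tumors were thus high, 4 Vhcl tumors lay below every one of them, and AB11 lay inside the Lov range, so the groups overlapped. The means were 6.64 ± 2.04 in Vhcl and 9.17 ± 0.31 in Lov (SD, n = 5 each), a difference of 2.53 on the log2 scale, or 5.78-fold.

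The second Rdh12 probe set had the same order of groups. It read 4.79, 6.31, 6.22, 4.09 and 7.82 in the same Vhcl tumors and 7.75, 7.79, 7.54, 8.46 and 7.64 in the Lov tumors, a difference of 1.99. Its correlation with the first probe set was 0.977 over the 10 tumors. The highest Vhcl value was again that of AB11, which here exceeded the Lov tumors A19, A48, A50 and AB10.

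**Figure D1:**
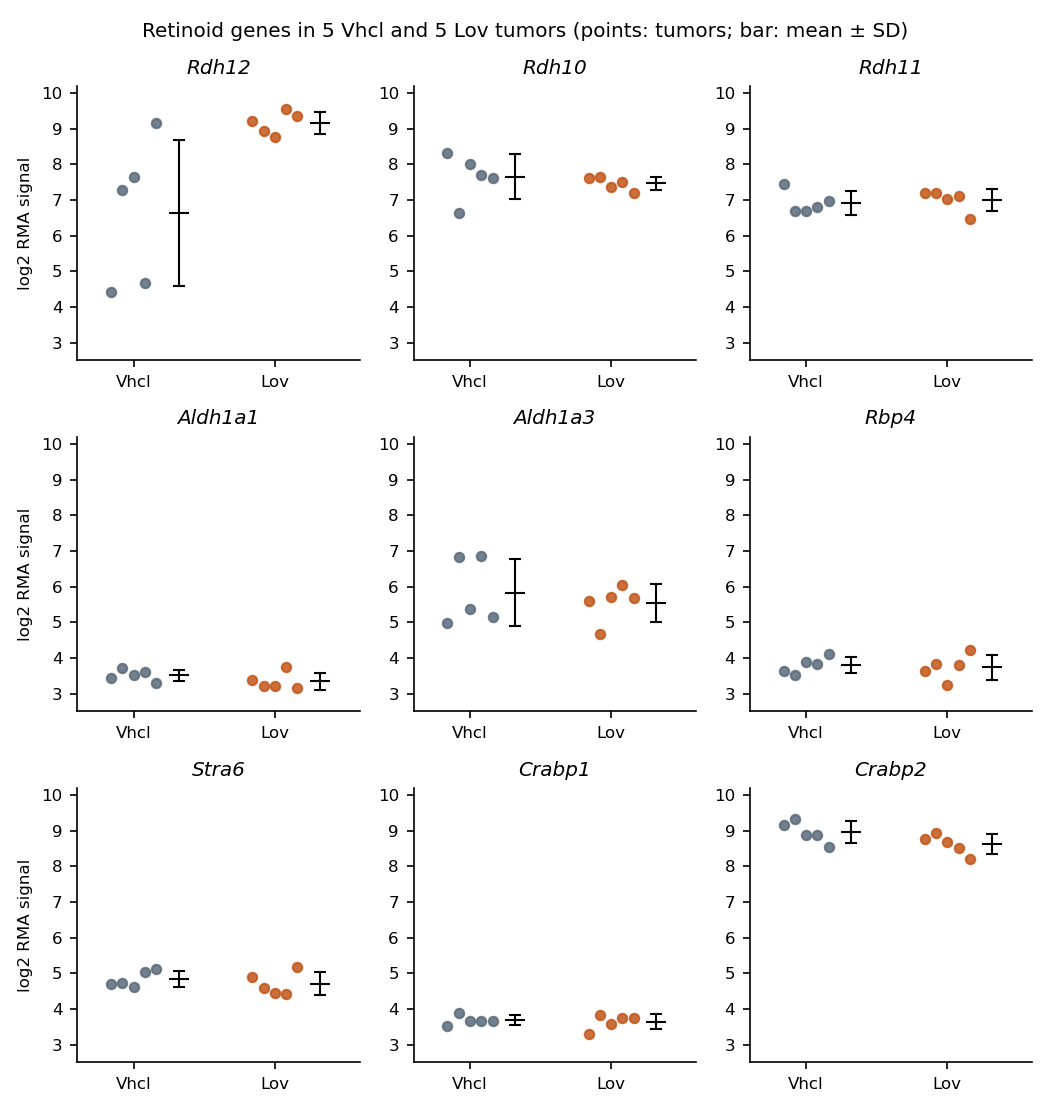
Log2 RMA signal of the main probe set of each retinoid gene; points are single tumors (5 Vhcl, 5 Lov) and the bar beside them is the mean ± SD. Rdh12 ranged from 4.42 to 9.17 in Vhcl and from 8.78 to 9.55 in Lov, while the groups overlapped closely for the other 8 genes.

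The 2 lowest Rdh12 values carried much of the difference. It was 1.98 without Vhcl A45, 2.04 without Vhcl A59 and 1.14 without both. Vhcl A59 was also the array farthest from the rest on the first principal component (23% of the variance), at -65.3 against -19.8 to 32.3 in the other 9 arrays. Without Vhcl AB11, the tumor of highest salivary gland signal, the Rdh12 difference was 3.16. The salivary gland mean was next highest in Vhcl A59 (6.91) and Lov A19 (5.855), against 11.92 in Vhcl AB11. The log2 ratio of the linear group means, which weights the high tumors more, was 1.58.

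The spread of Rdh12 in Vhcl exceeded that of nearly all other transcripts. Its SD of 2.04 was above that of 99.9% of the 45037 probe sets in the same tumors, while its Lov SD of 0.31 was above that of 82.4%. The ratio of the 2 SDs was 6.57. Rdh10 also had a wider Vhcl spread, with SDs of 0.63 and 0.19 and a ratio of 3.40. Aldh1a3 varied in both groups, with SDs of 0.93 and 0.52, each above at least 97.1% of probe sets. The other members had SDs of 0.14 to 0.33 in Vhcl and 0.21 to 0.35 in Lov, where the medians of all probe sets were 0.21 and 0.19. In Lov, the SDs of Rbp4 and Stra6 (0.35 and 0.33) were above those of 88.3% and 84.7% of probe sets, higher shares than that of Rdh12 in the same tumors.

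**Figure D2:**
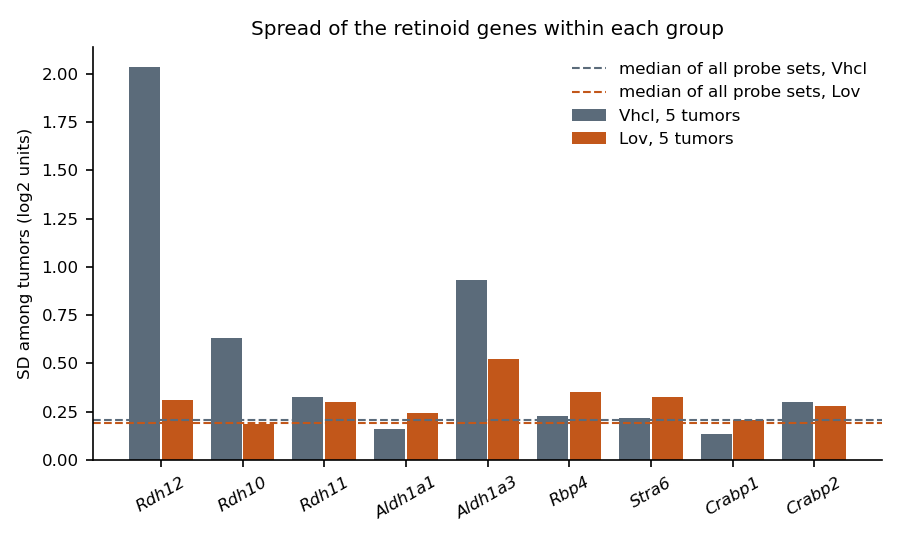
SD of the log2 signal among the 5 Vhcl tumors (grey bars) and the 5 Lov tumors (orange bars) for each retinoid gene, with dashed lines at the median SD of all probe sets in each group. Rdh12 reached 2.04 in Vhcl and 0.31 in Lov.

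For the other 8 genes the question was whether the rest of the pathway differed with Rdh12, and it could be tested. Over all 45037 probe sets, limma called 0 at an adjusted p under 0.05 (0% of those tested). At an unadjusted p under 0.05 it counted 1408 higher (3.13%) and 971 lower (2.16%) with Lov. In 271 probe sets (0.602%) the groups did not overlap. Of the 8 members, 0 had an adjusted or an unadjusted p under 0.05 and 0 had groups without overlap. Their differences were negative in 7 and positive in 1, with a median of -0.15. Over all 45037 probe sets, 21313 differences were negative and the median was 0.01. Among the 7, Aldh1a1, Rbp4, Stra6 and Crabp1 had signals near or under the array medians. Rdh10, Rbp4, Stra6 and Crabp1 changed sign in some of the alternatives given at the end. Each of the 8 members was also given an exact permutation test, 8 in all, in which the smallest possible 2-sided p is 0.00794.

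Rdh10 encodes the enzyme that oxidizes retinol to retinal on the way to retinoic acid. Its log2 signal was 8.31, 6.63, 8.0, 7.70 and 7.61 in Vhcl A45, A49, A54, A59 and AB11, and 7.61, 7.66, 7.38, 7.51 and 7.20 in Lov A19, A48, A50, A55 and AB10. The Lov tumors all lay between the extremes of Vhcl. The difference was -0.18 (95% interval -0.74 to 0.38, limma adjusted p = 0.988, exact permutation p = 0.579). The second probe set differed by -0.20.

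Rdh11 encodes a retinal reductase, and its gene is the neighbor of Rdh12. Its log2 signal was 7.46, 6.68, 6.68, 6.80 and 6.98 in the Vhcl tumors and 7.20, 7.19, 7.04, 7.12 and 6.48 in the Lov tumors, in the order above. The lowest of all 10 values was that of Lov AB10, where Rdh12 was high, and the highest that of Vhcl A45, where Rdh12 was lowest. The difference of 0.09 (95% interval -0.31 to 0.48) had a limma adjusted p of 0.992 and an exact permutation p of 0.667. The second probe set differed by 0.23. Its highest value was again that of Vhcl A45 (7.39), but its lowest was that of Vhcl A54 (6.04), under Lov AB10 (6.46). The correlation of Rdh11 with Rdh12 over the 10 tumors was -0.147.

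Aldh1a3, which makes retinoic acid from retinal, read 4.97, 6.84, 5.37, 6.85 and 5.14 in the Vhcl tumors and 5.60, 4.66, 5.72, 6.06 and 5.67 in the Lov tumors. Vhcl A49 and A59 lay above all other tumors, and the Lov tumors spanned the values of the remaining Vhcl tumors. The difference was -0.29 (95% interval -1.17 to 0.59, limma adjusted p = 0.988, exact permutation p = 0.540), and the other Aldh1a3 probe sets differed by -0.31 and -0.17. Aldh1a1, which catalyzes the same step, had log2 signals of 3.15 to 3.75, under the medians of the arrays, and a difference of -0.17 (95% interval -0.45 to 0.11, exact permutation p = 0.238).

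The transport genes also had signals near the array medians or under them. Rbp4, the carrier of retinol in blood, had log2 signals of 3.53 to 4.12 in Vhcl and 3.23 to 4.21 in Lov, a difference of -0.07 (95% interval -0.44 to 0.31, exact permutation p = 0.730). Stra6, the RBP4 receptor, had signals of 4.62 to 5.11 in Vhcl and 4.42 to 5.19 in Lov, a difference of -0.13 (95% interval -0.48 to 0.23, exact permutation p = 0.492). No detection call was made for them, and near the array median or under it a change in RNA can be compressed.

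Crabp2, which shuttles retinoic acid to the nucleus, read 9.16, 9.34, 8.89, 8.87 and 8.55 in the Vhcl tumors. It read 8.76, 8.95, 8.69, 8.53 and 8.21 in the Lov tumors, each of which lay within or under the Vhcl range. The difference was -0.33 (95% interval -0.70 to 0.03, limma adjusted p = 0.961, exact permutation p = 0.127), so it was not separated from the spread between tumors. In fold terms the interval ran from 0.615 to 1.02 of the Vhcl level. Crabp1, its paralog, had log2 signals of 3.31 to 3.90, with a difference of -0.03 (95% interval -0.29 to 0.22, exact permutation p = 0.817).

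**Figure D3:**
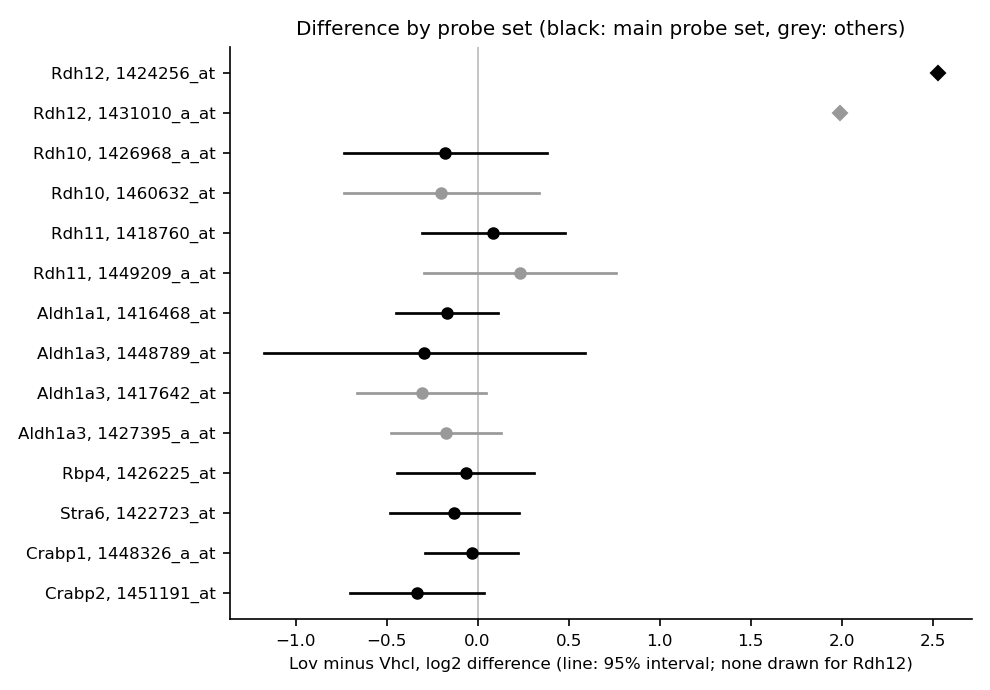
Lov minus Vhcl log2 difference of each of the 14 probe sets, with the 95% interval from limma (black, main probe set; grey, others); Rdh12 is drawn as diamonds with no interval because it was chosen by this difference. The intervals of all 12 other probe sets include 0, and Rdh12 lies at 2.53 and 1.99.

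Across tumors the members did not follow one another closely. Over their 36 pairs, Pearson correlations across the 10 tumors ran from -0.615 to 0.661, and 0 pairs were past 0.7 in size. The lowest was that of Rdh12 with Crabp2, and Aldh1a1 with Aldh1a3 and Rbp4 with Stra6 were the highest (0.661 each). With Rdh10 the value for Rdh12 was -0.404. After each group's mean was subtracted, Rdh12 with Crabp2 was -0.395, so part of the first value came with the group difference by which Rdh12 was chosen, and the lowest pair was Rbp4 with Crabp2 at -0.718. These values share the same 10 arrays and include genes of low signal, and they are descriptions.

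Of 72 other genes of retinoid biology, 62 had a probe set of their own. Of these, 31 differences were negative, Bco2 had the same mean of 4.10 in both groups, and the rest were positive. The median difference was -0.01. At an unadjusted limma p under 0.05, 2 genes were higher with Lov and 1 was lower, 4.84% in all. The share was 6.24% over all genes with 1 probe set each and 5.28% over all probe sets. At an adjusted p under 0.05, 0 of the 62 passed. The 2 genes counted as higher were among 15 other retinol dehydrogenases and reductases, and the 1 lower was among 13 nuclear receptors and coregulators. Of the 2 higher genes, Sdr16c5 had been listed by the study as raised by Lov in these same tumors. Its place in the count was thus known beforehand. None passed among 3 other retinal dehydrogenases, 3 enzymes of retinoic acid degradation, 8 genes of ester metabolism and carotenoid cleavage, 10 genes of binding and uptake and 14 genes induced by retinoic acid.

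Sdr16c5, also called Rdhe2, encodes a retinol dehydrogenase of epidermis. It read 3.79, 4.18, 4.39, 3.56 and 5.55 in the Vhcl tumors and 4.99, 4.71, 6.57, 6.15 and 4.92 in the Lov tumors, a difference of 1.17. The gene stands in the study's own list of genes raised by Lov in these tumors, so this is a description. As with Rdh12, the highest Vhcl value was that of AB11 and the lowest were those of A45 and A59. Its correlation with Rdh12 was 0.775, and 0.602 after each group's mean was subtracted. Both genes were chosen for being higher with Lov, so part of the first value came with that choice. By the first value Sdr16c5 ranked 223 among 4374 genes with a range of at least 1 log2 unit.

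Rdh14, a retinol dehydrogenase found in many tissues, read 8.02, 7.18, 7.77, 7.48 and 7.86 in the Vhcl tumors and 7.90, 8.08, 8.24, 8.11 and 8.11 in the Lov tumors. Its difference of 0.43 ± 0.15 (SE, limma adjusted p = 0.928) was larger than those of its other probe sets, 0.21 and -0.05. Rara, the retinoic acid receptor alpha, read 5.43, 5.79, 5.65, 5.96 and 5.78 in the Vhcl tumors and 5.34, 5.24, 5.32, 5.46 and 5.32 in the Lov tumors. Only Lov A55 exceeded a Vhcl tumor, A45. The difference was -0.39 ± 0.11 (SE, limma adjusted p = 0.919). Rdh14 and Rara were named because their unadjusted limma p was under 0.05 among the 62 genes, so their differences are descriptions.

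In the remaining lists the gene of highest signal and that of largest difference showed little separation. Among the reductases, Dhrs7, of highest signal, differed by -0.39 and Dhrs3, which reduces retinal and is itself induced by retinoic acid, by 0.03. Cyp26b1, which degrades retinoic acid, differed by 0.27. Fabp5, a carrier of fatty acids and retinoic acid, differed by -0.17 and Scarb1, a lipoprotein and carotenoid receptor, by -0.45 ± 0.21 (SE, limma adjusted p = 0.939). Lpl, the lipase that releases fatty acids and retinol from circulating lipoproteins, differed by -0.50. Among retinoic acid-induced genes, Tgm2 differed by -0.11 and Hoxb5 by -0.40 ± 0.39 (SE). The Hoxb5 difference came from Vhcl A59, which read 6.08 against 3.62 to 4.03 in all other tumors. Aldh8a1 and Aldh1a2 differed by -0.03 and -0.17, and the coactivator gene Ncoa1 by -0.01. For these genes all limma adjusted p-values were at least 0.939.

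**Figure D4:**
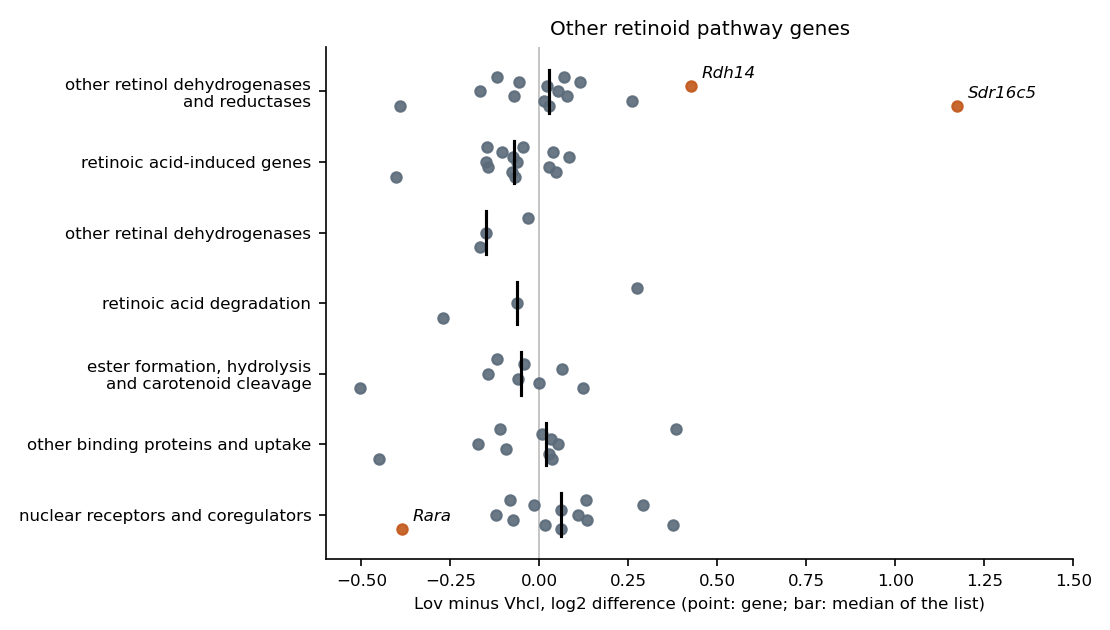
Lov minus Vhcl log2 difference of 62 other retinoid pathway genes by list (point, 1 gene; black bar, median of the list; genes of 2 lists are drawn in both). Named in orange are Sdr16c5 (1.17), Rdh14 (0.43) and Rara (-0.39), the genes with an unadjusted limma p under 0.05.

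Genes whose pattern was most like that of Rdh12 were sought among 4374 genes with a range of at least 1 log2 unit over the 10 tumors. The highest Pearson correlations were those of Ankrd44 (0.968), Tmem234 (0.964), Otud3 (0.959), Glt28d2 (0.955) and Txlna (0.948). After each group's mean was subtracted, Ankrd44 (0.981), Gzmb (0.95), Tmem234 (0.941), Sh3bgrl3 (0.939) and Txlna (0.938) led. Ankrd44, an ankyrin repeat gene, read 4.97, 5.67, 5.92, 5.11 and 6.21 in the Vhcl tumors and 5.88 to 6.24 in the Lov tumors, so its lowest values were those of A45 and A59.

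Of these genes, Tmem234, Otud3, Txlna and Sh3bgrl3 lie on mouse chromosome 4, whereas Rdh12 lies on chromosome 12. The chromosomes were then counted, a step chosen after these values were seen. Of the 100 genes most like Rdh12, 59 lay on chromosome 4, against 408 of the 4374 (9.33%), and the count was 60 after subtraction of the group means. The median centered log2 signal of 725 chromosome 4 genes was -0.41 in Vhcl A45 and -0.25 in Vhcl A59, the tumors of lowest Rdh12, and lay between 0.00 and 0.18 in the other 8. Other chromosomes were also shifted in single tumors by this measure. Chromosome 10 was at -0.31 in Vhcl A59 and chromosome 1 at -0.21 in Vhcl A45. Chromosomes 2, 3, 6, 11 and 17 were at 0.19 to 0.25 in Vhcl A49, and chromosome 12 was highest in Lov A19, at 0.15. The correlation of the chromosome 4 median with Rdh12 over the 10 tumors was 0.885. Those of the other chromosomes ran from -0.316 to 0.453, with -0.113 for chromosome 12.

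This likeness rested on the same pair of tumors: without A45 and A59 the correlation was 0.16 over 8 tumors. With the chromosome 4 median as a covariate, the Lov minus Vhcl difference of Rdh12 was 1.20 in place of 2.53. Among the remaining Vhcl tumors, A49 and A54 had chromosome 4 medians of 0.00 and 0.13, near those of the Lov tumors, and Rdh12 signals of 7.28 and 7.64, under every Lov tumor. Of the 62 other pathway genes, 5 lie on chromosome 4 (Dhrs3, Sdr16c5, Sdr16c6, Rbp7 and Stra6l), and they did not share one pattern. Dhrs3 and Sdr16c5 were lowest among the Vhcl tumors in A45 and A59. Rbp7, a cellular retinol-binding protein gene, was highest there, at 9.11 and 9.58 against 7.68, 7.85 and 8.71 in A49, A54 and AB11. Its Lov signals were 7.47 to 9.16, and the group difference was 0.01. Sdr16c6 and Stra6l had log2 signals under the array medians in all tumors. DNA copy number was not measured, and the part of chromosome 4 in the Rdh12 values was not tested.

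**Figure D5:**
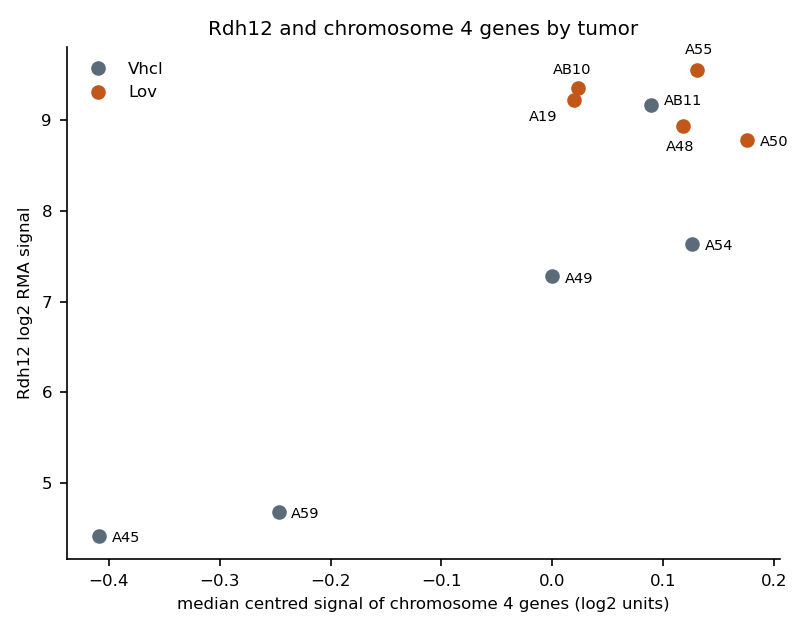
Rdh12 log2 RMA signal against the median centered log2 signal of 725 chromosome 4 genes, 1 point per tumor (Vhcl in grey, Lov in orange). These genes had a mean signal above the median of all probe sets. Vhcl A45 and A59 are lowest on both axes, and the other 8 tumors show a correlation of 0.16.

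Other measures also moved with Rdh12 over the 10 tumors. The mean log2 signal of 7 luminal epithelium markers correlated with it at -0.70, with ranges of 10.04 to 10.56 in Vhcl and 9.86 to 10.14 in Lov. Averaged over the 10 tumors, 0 of the 7 were below the median of all probe sets. In single tumors Krt19 was lower, at 4.67 to 4.95 in Lov and 4.27 to 8.24 in Vhcl, with its highest value in Vhcl A59. The mean log2 signal of 5 T cell markers correlated with Rdh12 at 0.688, with ranges of 5.34 to 5.80 in Vhcl and 5.45 to 5.67 in Lov. Averaged over the 10 tumors, 1 of the 5 was below the median of all probe sets. The Vhcl and Lov means were 4.62 and 5.13 for Cd3g, 6.28 and 6.29 for Cd4, and 5.16 and 5.09 for Cd8a. The luminal and T cell correlations were the largest in size among the 13 marker lists. The salivary gland mean had a correlation of -0.0189 with Rdh12, the skeletal muscle mean -0.168 and the beta-actin 3′ minus 5′ signal, a measure of RNA integrity, -0.324. Their part in the Rdh12 values was not tested.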

How the data were processed

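RNA of 10 mammary tumors (5 Vhcl, 5 Lov) had been hybridized to 1 Affymetrix array each. The authors deposited log2 signals with 2 decimals, made by Robust Multi-array Analysis (RMA) with affy, as the submitters' processing notes state; versions were not given in the sources used here. RMA fits all arrays together and compresses differences between low signals. No further scaling was applied, and the number of arrays limits the precision.

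After removal of 64 control probe sets, 45037 were compared 2-sided with limma 3.58.1 in R 4.3.3 (default empirical Bayes, prior degrees of freedom 3.61), the p-values being adjusted by Benjamini-Hochberg over every probe set compared. Exact permutation tests enumerated 252 assignments. One gene symbol was given for 34945 probe sets, several for 932 and none for 9160; 34741 matched the RefSeq table of GRCm38.p6, used for names, chromosomes and neighbors.

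The members and lists were chosen with earlier results of these data known. Named besides the members were pathway genes with an unadjusted p under 0.05, the gene of highest signal and of largest difference in each list, and the 5 genes most like Rdh12 by each correlation. Dhrs3, Sdr16c6, Rbp7 and Stra6l were named after their values were seen. Of 72 listed genes, 10 had no probe set annotated to them alone and were not analysed here. The alternatives were other priors, array weights, no moderation of the variance, other scalings, covariates, filters and summaries of probe sets, and tumors left out. The covariate from chromosome 4 and the removal of Vhcl A45 and A59 together were chosen after seeing the data. Fits were tested on simulated data. The 13 lists of tissue markers served as descriptions.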

Additional observations from a re-analysis of the deposited data

Results flagged for a closer look

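Rdh11 in Lov AB10 stood apart from the other Lov tumors. Its log2 signal of 6.48 lay below 7.04 to 7.20 in the other 4, a gap of 0.778 of the whole range of the group, above the critical value of 0.71 for 5 values. The second Rdh11 probe set was also lowest in Lov AB10 among the Lov tumors, at 6.46. Of 24 groups of 5 examined in the same way, this was the 1 past the critical value, and chance alone gives about 1 in 20.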

How the results depend on the processing

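The Rdh12 difference kept its direction in 24 of 24 alternatives and ran from 1.14 to 3.16, and from 1.98 to 3.16 when 1 tumor was left out. No other member had an adjusted p under 0.05 in any alternative (lowest 0.519, Crabp2). With the beta-actin 3′/5′ measure in the fit, the differences of Rdh11 (-0.0461), Rbp4 (0.0632) and Stra6 (0.0224) changed sign. With Lov A19 and Vhcl AB11 left out, those of Rbp4 (0.0375) and Crabp1 (0.0475) did. With the chromosome 4 median as a covariate, that of Rdh10 was 0.00529, and with Vhcl A45 and A59 left out it was 0.0587. When 1 tumor was left out, Rbp4 ran from -0.184 to 0.0615 (above 0 without Vhcl AB11 or Lov A50) and Crabp1 from -0.0775 to 0.0525 (above 0 without Vhcl A49 or Lov A19).

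Counts of lower members at an unadjusted p under 0.05 rose from 0 to 1 with a second quantile normalization, the prefix of the tumor name in the fit, the beta-actin covariate, and Lov A19 and Vhcl AB11 left out; the gene was Crabp2 in these. With 1 tumor left out they ran from 0 to 1, the gene being Rdh10 without Vhcl A49, Crabp2 without Vhcl AB11 or Lov A48, and Aldh1a1 without Lov A55. Counts of lower pathway genes went from 1 to 2 with the trended and robust prior, quantile normalization, the prefix covariate, the beta-actin covariate, the mean of probe sets, the chromosome 4 covariate, and Lov A19 and Vhcl AB11 left out, and ran from 1 to 2 with 1 tumor left out (2 without Vhcl A45, A49 or AB11, or Lov A19 or A50). Counts of higher pathway genes fell from 2 to 1 with probe sets above the median signal, the mean of probe sets, and the chromosome 4 covariate. They rose to 3 without probe sets named as shared between transcripts (Rarres2 added), without Vhcl A45 (Dhrs4) and without Lov A50 (Cyp26b1). Rara was counted in all 24 fits, the first included, Rdh14 in 23 and Sdr16c5 in 20. The cause of these shifts was not tested. No paired analysis was possible because the tumor names do not pair Vhcl with Lov tumors. Signals near or below the array medians (Aldh1a1, Rbp4, Stra6, Crabp1) limit what differences can be seen.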
